A study of Rattus norvegicus with 4 samples.

Results

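Integrins, cadherins and claudins are 3 families of transmembrane adhesion proteins, and their transcripts were followed here in rat embryonic stem cells (ESCs) with and without disruption of *Thop1*, the gene of the cytosolic metalloprotease thimet oligopeptidase. The members were taken by symbol (*Itga*, *Itgb*, *Cdh* or *Cldn* followed by a number or, for alpha integrins, a number or letters), which gave 70 of the 34773 genes of the table. They comprise 17 integrin alpha subunits, 8 integrin beta subunits, 22 cadherins and 23 claudins. All 4 libraries come from the *Rattus norvegicus* ESC line DA-5-3 carrying a *Rex1*-GFP reporter, cultured on feeder cells in 2i/LIF, that is with the MEK inhibitor PD0325901, the GSK3 inhibitor CHIR99021 and LIF. The control, labelled WT (the unedited DA-5-3GFP line), is 1 library, and the *Thop1*-KO group is 1 library from each of 3 subclones (#1, #2 and #3) made with Cas9 and puromycin selection, each of them 1 clone. The study's text describes DA-5-3 as diploid, whereas the deposited design calls the sequenced cells haploid, and neither the age of the cultures nor the species of the feeder cells is given in the sources used here.

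Cells hold to each other and to the matrix through these families. Classical cadherins bind the same cadherin on the neighbouring cell and are tied to actin by catenins, claudins seal the space between epithelial cells as the strands of tight junctions, and an integrin is an alpha-beta pair that binds matrix proteins such as laminin or fibronectin and is tied to actin by talin, vinculin and tensins. In naive ESCs E-cadherin (*Cdh1*) holds the compact colony together, and beta-catenin, its cytoplasmic partner, is also the nuclear effector that CHIR99021 stabilizes.

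The counts on genes summed to between 15405499 and 17936544 per library. Values are given as CPM (counts scaled to library size with TMM factors), which compare 1 gene between libraries, or as FPKM (counts per length and depth, as the authors deposited them), which compare genes. Subclones were set against WT by edgeR's quasi-likelihood test, and a gene is called at a Benjamini-Hochberg adjusted p under 0.05. Log2 fold changes are *Thop1*-KO minus WT, with their standard error (SE). Since WT is 1 library, the spread comes from the 3 subclones of 1 line alone, p-values measure only that spread, a genotype effect cannot be told apart from a property of that WT culture, and an exact one-sided permutation test of 1 against 3 cannot go below 0.25. *Thop1* itself was at 110, 92.5 and 149 CPM in #1, #2 and #3 and 370 in WT (log2 fold change -1.66, SE 0.29, adjusted p = 0.0187). ESC markers summed to 6190, 5100 and 5620 FPKM in the subclones and 5740 in WT, most of it *Pou5f1*. Of the 9 markers, *Esrrb* (4.30), *Fgf4* (3.37) and *Tfcp2l1* (2.89) were called higher and *Utf1* (-1.51) lower, by log2 fold change. Of all tested genes, 8.62% were called higher and 5.17% lower. Of 12 listed fibroblast markers, *Thy1*, *Lum* and *Dcn* had 0 counts in every library. The 8 that could be tested were all lower in WT than in every subclone, beside 38.1% of all tested genes. *Col5a2*, *Pdgfra*, *Postn* and *Prrx1*, with 6, 2, 3 and 8 counts in WT, passed the filter on low counts only through the subclones. The filter thus fixed their direction. Of the 8 tested markers, 1 was called (*Col5a2*), a share near the 13.8% of all tested genes called. The list summed to 62.0, 129 and 77.0 FPKM in #1, #2 and #3 against 35.5 in WT. The part of these fibroblast transcripts in the results on adhesion genes was not tested. Trophectoderm markers summed to 4.25, 21.2 and 4.83 FPKM in #1, #2 and #3 and 14.0 in WT, carried by *Cdx2*. The sums over the 4 libraries were 2.65 to 3.75 FPKM for primitive endoderm, 0.83 to 2.96 for blood and 4.48 to 8.75 for endothelium. Of these 4 lists 0 genes were called by edgeR or DESeq2, with 3 primitive endoderm genes and 0 of the others at an unadjusted p under 0.05. With 13.8% of all tested genes called by edgeR and 21.5% by DESeq2, 0 calls in lists with so few tested genes say little.

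Most members were silent or barely detected. Of the 70, 24 had 0 counts in all 4 libraries, 13 more had at most 8 counts in any library and were left out by the filter on low counts, and 33 were tested (11 alpha integrins, 5 beta integrins, 10 cadherins and 7 claudins). The filter can be passed through 1 group alone, as *Cdh3*, *Cdh9* and *Cdh15* did through WT and *Itgav*, *Cdh4*, *Cldn23* and *Itgb2* through the subclones. The 13 genes at 1 FPKM or more in every library were *Itga7*, *Itgae*, *Itga9*, *Itgb1*, *Itgb5*, *Itgb7*, *Cdh1*, *Cdh24*, *Cldn3*, *Cldn4*, *Cldn6*, *Cldn7* and *Cldn12*. Each family had 1 dominant transcript or a pair of them. *Cdh1* made 90.8% to 93.9% of the summed cadherin FPKM, *Cldn4* made 58.7% to 84.9% of the claudin sum, *Itga7* made 69.6% to 75.6% of the alpha integrin sum, and *Itgb1* with *Itgb5* made nearly all of the beta sum.

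**Figure D1:**
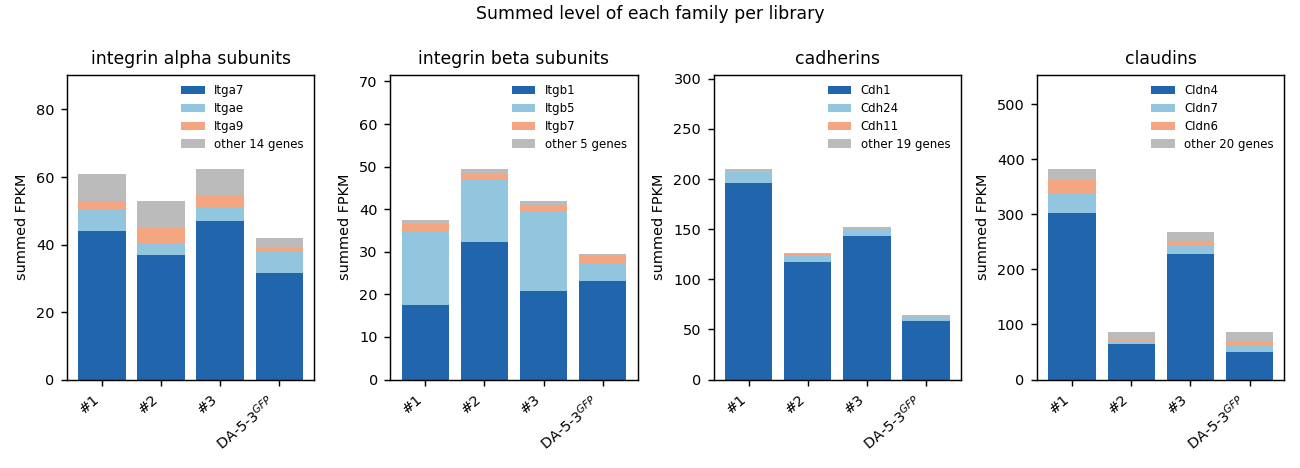
Summed FPKM of each family in the 4 libraries, with the 3 leading genes of the family set apart within each bar (DA-5-3GFP is WT). Cadherins summed to 210, 127 and 152 FPKM in #1, #2 and #3 and 64.1 in WT, while the claudin sum was 86.0 in #2 and 86.6 in WT against 382 in #1 and 268 in #3.

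Disruption of *Thop1* went with higher transcript levels of 4 members, namely *Itgav*, *Itga5*, *Itgb5* and *Cdh1*, and with no called decrease. These are 12.1% of the 33 tested members, beside 13.8% of all 15028 tested genes called in either direction, 8.62% called higher and 5.17% called lower, so the share called was near that of the transcriptome. Among the 4, *Itgav* passed the filter on low counts only through the subclones, which fixed its direction. DESeq2 called the same 4 and *Itga9*, that is 5 of the 29 members it could adjust, where it called 21.5% of all genes. The median log2 fold change of the tested members was 0.69, beside 0.06 for all tested genes. WT lay below all 3 subclones in 16 members (48.5%, beside 38.1% of all tested genes), above all 3 in 5 (15.2%, beside 37.6%) and within their range in the remaining 12. Among the 16, *Itgav*, *Cdh4*, *Cldn23* and *Itgb2* (6, 8, 2 and 8 counts in WT) passed the filter only through the subclones. Among the 5, *Cdh3*, *Cdh9* and *Cdh15* passed it only through WT. The filter fixed the side of these genes, so their side is not a result. The tested members are long genes, with a median of 3479 exon bases against 2096 for all tested genes, and with exon length corrected in each library by loess the medians were 0.42 and 0.02, and 3 members were called beside 11.8% of all genes.

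**Figure D2:**
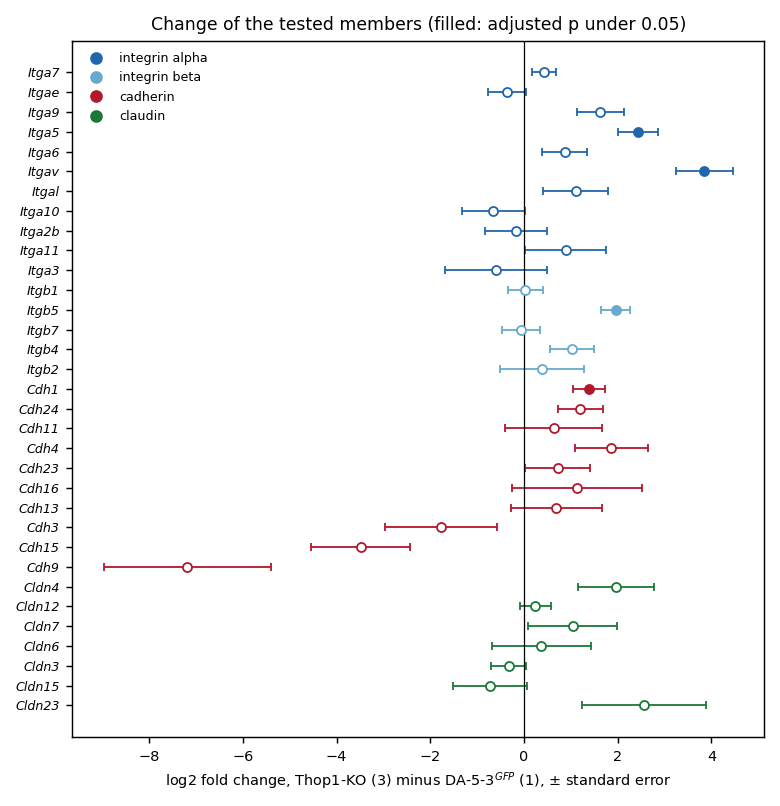
Log2 fold change of each tested member with its SE, *Thop1*-KO minus WT, grouped by family, with the called genes marked. *Itgav*, *Itga5*, *Itgb5* and *Cdh1* are called, at 3.85, 2.44, 1.96 and 1.39, and no member left of 0 is.

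The called integrins were subunits of the receptors for RGD-bearing ligands. The alpha-v subunit (*Itgav*, ENSRNOG00000004912) pairs with several beta subunits to bind vitronectin, fibronectin and latent TGF-beta. The deposited annotation, whose genome build is not named, places it at bases 71114100 to 71202411 of chromosome 3, plus strand. *Itgav* had 97, 88 and 126 counts in #1, #2 and #3 and 6 counts in WT. In CPM these were 5.78, 4.98, 7.01 and 0.404, so WT lay far below the 3 subclones, which differed among themselves by up to 40.9%. The log2 fold change was 3.85 (SE 0.61, adjusted p = 0.0147). *Itgav* passed the filter on low counts only through the subclones, which fixed its direction, so the call adds no support for that direction. The ratio of the subclones to WT was 14.7, with a 95% interval of 6.68 to 40.4 that covers counting error only. The alpha-5 subunit (*Itga5*) pairs with the beta-1 subunit as the main fibronectin receptor and lies on chromosome 7, minus strand, from 144970444 to 144993652. It was at 11.5, 11.8 and 9.63 CPM in the subclones and 2.02 CPM in WT (log2 fold change 2.44, SE 0.43, adjusted p = 0.0195). The beta-5 subunit (*Itgb5*), a partner of alpha-v in binding vitronectin, lies on chromosome 11, minus strand, from 70056500 to 70172372, and the annotation gives it as a processed transcript. It was at 68.8, 57.2 and 74.6 CPM in the subclones and 17.2 CPM in WT (log2 fold change 1.96, SE 0.31, adjusted p = 0.0152). In none of the 3 integrins did the subclones overlap with WT, which lay below every subclone in 38.1% of all tested genes. All 3 kept the call under the length correction and under DESeq2, whereas a filter of 10 counts in every library leaves *Itgav* out and limma on log2(FPKM + 1) without a filter did not call it. Without #3 their adjusted p-values were 0.0619, 0.0744 and 0.0668 for *Itgav*, *Itga5* and *Itgb5*.

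*Itgb5* gave a larger part of the beta pool in every subclone than in WT. Its share of the summed beta integrin FPKM was 14.7% in WT and 46.8%, 29.4% and 44.6% in #1, #2 and #3. The common beta-1 subunit (*Itgb1*, chromosome 19, 61677542 to 61725535), partner of most laminin, collagen and fibronectin receptors, was at 64.2, 120 and 78.1 CPM in the subclones and 85.7 CPM in WT. Its WT value lay inside the range of the subclones, and its log2 fold change was 0.03 (SE 0.37, adjusted p = 0.966). On the FPKM scale *Itgb1* and *Itgb5* were at 17.4 and 17.6 in #1, 32.3 and 14.5 in #2, 20.8 and 18.7 in #3, and 23.1 and 4.35 in WT. The transcripts were thus at like levels in #1 and #3, with *Itgb1* ahead in #2 and further ahead in WT. Among the other beta subunits, *Itgb7*, known from lymphocyte homing, was at 4.12 to 4.30 CPM in the subclones and 4.44 in WT, and *Itgb2*, the leukocyte beta subunit, had at most 15 counts in any library. *Itgb4*, the hemidesmosome subunit, was at 5.07, 4.53 and 4.01 CPM and 2.22 in WT (adjusted p = 0.177), and is uncertain since 776 bases of its span lie over *Galk1*, which had 3587 to 7786 counts per library.

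The promoters of the 3 called integrins are shown because their transcripts rose together; each is 250 bases before to 50 bases after the RefSeq start in GRCr8, written along the gene, so its positions are not those of the deposited annotation. The capitals mark the GC box GGGCGG on either strand, a motif bound by Sp1.
*Itgav*, chr3:89245132-89245431, plus strand: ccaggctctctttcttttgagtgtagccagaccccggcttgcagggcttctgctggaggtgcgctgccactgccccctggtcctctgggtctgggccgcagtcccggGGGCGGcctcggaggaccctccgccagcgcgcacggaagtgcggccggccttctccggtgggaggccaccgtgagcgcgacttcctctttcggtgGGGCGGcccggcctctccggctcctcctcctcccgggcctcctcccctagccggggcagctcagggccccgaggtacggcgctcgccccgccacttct
*Itga5*, chr7:136381256-136381555, minus strand: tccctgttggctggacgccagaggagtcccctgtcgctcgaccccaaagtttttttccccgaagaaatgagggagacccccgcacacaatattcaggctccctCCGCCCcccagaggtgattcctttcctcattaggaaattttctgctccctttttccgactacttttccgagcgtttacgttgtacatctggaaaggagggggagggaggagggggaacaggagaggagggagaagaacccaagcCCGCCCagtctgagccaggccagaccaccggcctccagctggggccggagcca
*Itgb5*, chr11:80449324-80449623, minus strand: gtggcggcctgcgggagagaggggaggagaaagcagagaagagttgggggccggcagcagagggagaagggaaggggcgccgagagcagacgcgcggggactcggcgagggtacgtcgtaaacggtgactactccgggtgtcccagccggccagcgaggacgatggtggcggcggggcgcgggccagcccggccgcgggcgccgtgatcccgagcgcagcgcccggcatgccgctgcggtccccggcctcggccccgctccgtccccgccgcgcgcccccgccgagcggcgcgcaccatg
*Itgav* and *Itga5* each hold 2 GC boxes and *Itgb5* holds 0. The windows were GC-rich, with 72.7%, 58.7% and 76.7% G or C for *Itgav*, *Itga5* and *Itgb5*, against a median of 51.7% for all promoters of the table. Over the 51 of 70 members with an entry in that table, 24 (47.1%) held a GC box, beside 33.1% of all 33469 promoters. The core motif of the estrogen-related receptors, AAGGTCA, was searched on both strands as well, since *Esrrb* is 1 of the ESC markers called higher. It was found in 1 of the 51, *Cdh18*, and in 4.61% of all promoters.

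The remaining alpha subunits were led by *Itga7*, whose protein pairs with beta-1 as a laminin receptor best known from muscle. *Itga7* was at 225, 189 and 244 CPM in the subclones and 163 CPM in WT. WT was the lowest of the 4, but the difference did not pass the test (log2 fold change 0.43, SE 0.25, adjusted p = 0.268). *Itga9*, a receptor subunit for tenascin-C and osteopontin, was at 7.45, 13.9 and 12.5 CPM against 3.63 in WT. Its log2 fold change of 1.63 (SE 0.51) missed the threshold by edgeR (adjusted p = 0.0757) and passed it by DESeq2 (adjusted p = 0.0203). *Itga6*, the laminin receptor subunit often used as a stem cell surface marker, was at 13.4, 7.18 and 8.90 CPM and 5.38 in WT (log2 fold change 0.87, SE 0.48, adjusted p = 0.243). For both genes the subclones lay above WT without overlap, beside 38.1% of all tested genes with WT below every subclone.

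*Itgae* (CD103), the alpha partner of *Itgb7* in the receptor for E-cadherin on lymphocytes, was at 25.9, 14.3 and 15.7 CPM in the subclones and 24.0 in WT. Its span overlaps *Ncbp3*, *Atp2a3*, *Camkk1* and *P2rx1* on the same strand and *Haspin* on the other strand. These are overlaps of whole gene spans, introns included, so how far its reads can be told apart from theirs is not known. *Itgal*, *Itga10*, *Itga2b*, *Itga11* and *Itga3* were tested with no more than 104 counts in any library, and none passed the test. *Itga4*, an alpha subunit for fibronectin and VCAM-1, and *Itgb3*, another vitronectin partner of alpha-v, had 0 counts in WT and at most 8 and 7 counts in a subclone, too few to be tested.

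**Figure D3:**
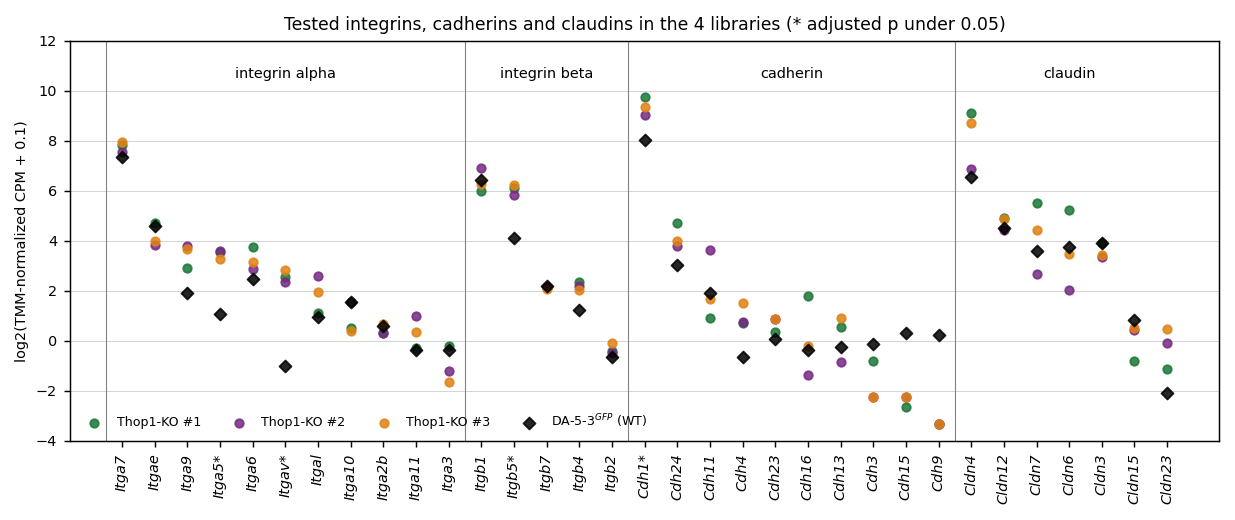
Log2(CPM + 0.1) of the 33 tested members in each library, with circles for the subclones, diamonds for WT and asterisks on the called genes. The diamonds lie below the circles for *Itgav*, *Itga5*, *Itgb5* and *Cdh1*, and among them for *Itgb1*, *Cldn6*, *Cldn7* and *Cldn12*.

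Among the cadherins, *Cdh1*, the E-cadherin of ESC colonies and epithelia, rose. It lies on chromosome 19, plus strand, from 38768467 to 38838395, and was at 868, 522 and 646 CPM in #1, #2 and #3 and 259 CPM in WT. The subclones were 3.35, 2.01 and 2.49 times the WT level. They did not overlap with it, beside 38.1% of all tested genes with WT below every subclone. The log2 fold change was 1.39 (SE 0.34, adjusted p = 0.0412), the weakest of the 4 calls. The call was lost under the length correction (adjusted p = 0.0827), under limma on FPKM values (0.067 to 0.144) and without #3 (0.103).

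*Cdh3* (P-cadherin), the next gene on the chromosome at 48789 bases from *Cdh1* with no gene of the table between them, was seen with 8, 2 and 2 counts against 12 in WT (log2 fold change -1.77, SE 1.19, adjusted p = 0.327). *Cdh3* passed the filter on low counts only through WT, which fixed its direction, so its counts are a description. *Cdh24*, a type II cadherin that also binds catenins, was at 26.1, 13.7 and 16.0 CPM against 8.07 in WT (log2 fold change 1.20, SE 0.48, adjusted p = 0.131). *Cdh11*, the cadherin of mesenchyme and bone, was at 1.79, 12.2 and 3.12 CPM in #1, #2 and #3 and 3.70 in WT. Its high value was in #2, the subclone with the highest summed fibroblast markers. WT, which had the lowest sum of these markers (35.5 FPKM), had more *Cdh11* than #1 or #3. The part of fibroblast transcripts in the *Cdh11* values was not tested.

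A pair of cadherins of other tissues had low counts in WT and nearly none in the subclones. Both passed the filter on low counts only through WT, which fixed their direction, so their counts are given as a description. *Cdh9*, a type II cadherin of neurons, had 0 counts in each subclone and 16 in WT, at least 6.27-fold higher in WT against a floor of 3 counts per subclone library. For *Cdh15*, the M-cadherin of muscle precursors, WT had 17 counts and the subclones 1, 2 and 2, a ratio of WT to the subclones of 12 with a 95% counting interval of 4.25 to 41.6. The ratio for *Cdh9* is a bound at the floor and that for *Cdh15* is taken from the counts, so they cannot be ranked. Both genes were named after their values were seen. *Cdh4*, *Cdh13*, *Cdh16* and *Cdh23* were tested at no more than 57 counts in any library, and none was called.

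The claudins gave 0 calls among 7 tested genes by edgeR, with 1 at an unadjusted p under 0.05, and 0 by DESeq2. With 13.8% of all tested genes called by edgeR and 21.5% by DESeq2, 0 of 7 says little about the family. *Cldn4*, a claudin of tight epithelia and a receptor of a clostridial enterotoxin, was the most abundant transcript of the 3 families in #1 and #3. It lies on chromosome 12 from 24761210 to 24763005. *Cldn4* was at 546, 116 and 419 CPM in #1, #2 and #3 and 92.5 CPM in WT. In #1 and #3 it was thus 5.91 and 4.53 times WT, but in #2 only 1.26 times. The log2 fold change of 1.96 was as large as that of *Itgb5*, but its SE of 0.81 was larger and the adjusted p was 0.142. *Cldn7*, which also sits along the lateral membrane of epithelia, was at 45.0, 6.34 and 21.2 CPM and 11.8 in WT. *Cldn6*, a claudin of embryonic epithelia and pluripotent cells, was at 37.3, 3.96 and 11 CPM and 13.5 in WT. For both, WT lay between #2 and #1. The trophectoderm regulator *Cdx2*, looked at after its values were seen, was at 3.34, 35.9 and 4.95 CPM in #1, #2 and #3 and 24.3 in WT. It was high in the pair of libraries where *Cldn4* and *Cldn7* were low, whereas *Cldn6* was higher in WT than in #3. *Eomes*, the other trophectoderm marker that could be tested, was at 4.95, 7.75 and 5.18 CPM in #1, #2 and #3 and 4.98 in WT. The part of *Cdx2* in the claudin values was not tested. *Cldn3*, at 14.9, 10.1 and 10.6 CPM and 14.9 in WT, and *Cldn12*, at 29.8, 21.5 and 29.0 CPM and 22.6 in WT, varied by 1.47 and 1.39 times among the subclones (log2 fold changes -0.33 and 0.24, SE 0.37 and 0.33). *Cldn15* and *Cldn23* were tested at no more than 25 counts and were not called, and *Cldn9*, 148 bases from *Cldn6*, had 0 counts in every library.

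The promoters of *Cldn6* and *Cldn7*, whose transcripts varied most between the subclones among the members with a mean of at least 50 counts, are shown with the E-box CAGGTG in capitals on either strand, the motif that the repressors Snai1 and Zeb1 bind in epithelial genes.
*Cldn6*, chr10:13215558-13215857, plus strand: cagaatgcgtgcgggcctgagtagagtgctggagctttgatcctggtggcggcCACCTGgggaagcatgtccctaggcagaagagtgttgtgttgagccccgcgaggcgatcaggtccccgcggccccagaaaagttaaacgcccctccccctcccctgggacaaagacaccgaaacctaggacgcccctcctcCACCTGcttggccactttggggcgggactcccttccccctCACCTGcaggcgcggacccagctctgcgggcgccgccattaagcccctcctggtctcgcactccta
*Cldn7*, chr10:55188420-55188719, plus strand: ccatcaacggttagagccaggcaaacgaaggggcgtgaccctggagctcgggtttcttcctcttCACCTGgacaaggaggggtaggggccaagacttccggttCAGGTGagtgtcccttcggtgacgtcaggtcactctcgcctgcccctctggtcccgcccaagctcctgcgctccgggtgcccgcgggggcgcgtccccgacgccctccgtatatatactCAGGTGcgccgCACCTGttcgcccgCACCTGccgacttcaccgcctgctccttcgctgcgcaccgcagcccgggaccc
*Cldn6* holds 3 of these E-boxes and *Cldn7* holds 5. Of all 33469 promoters, 18.8% hold at least 1, 0.359% at least 3 and 0.012%, that is 4 promoters, at least 5. Of the claudins with an entry 6 of 19 held the motif, and of the cadherins 0 of 13. *Cdh1* and *Cldn4* have no entry. *Snai1*, whose protein binds this motif, was at 5.96, 7.58 and 6.90 CPM in the subclones and 16.4 in WT. Its log2 fold change was -1.27 (SE 0.34, adjusted p = 0.0522). *Zeb1*, with no more than 26 counts in any library, went the other way (log2 fold change 0.67, SE 0.73, adjusted p = 0.542). Among related factors, the log2 fold changes were -0.66 for *Snai2*, 1.61 for *Zeb2*, 1.52 for *Twist1*, 0.85 for *Twist2* and 0.14 for *Tcf3*. None of these was called. The part of any of these factors, *Snai1* and *Zeb1* included, in the claudin values was not tested.

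The spread among the subclones was wide in part of the members. Among the 19 members with a mean of at least 50 counts over the subclones, the ratio of the highest to the lowest subclone had a median of 1.82, beside 1.42 for the 10429 genes at the same depth. It was at least 4 in 4 of the 19, namely *Cldn6* (9.41), *Cldn7* (7.10), *Cdh11* (6.83) and *Cldn4* (4.70), beside 241 (2.31%) of the 10429 genes. The 3 claudins and *Cdh1* shared the order #1, #3, #2 from high to low, an order found in 9 of the 19 members and in 28.8% of the genes. *Cdh11*, *Itgal*, *Itgb1* and *Itga9* ran #2, #3, #1, an order found in 4 of the 19 members and in 24.2% of the genes. From the lowest to the highest subclone, *Itga5* varied by 22.8%, *Itgb5* by 30.4% and *Itgav* by 40.9%; a call requires a small spread, so nothing is read from this.

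**Figure D4:**
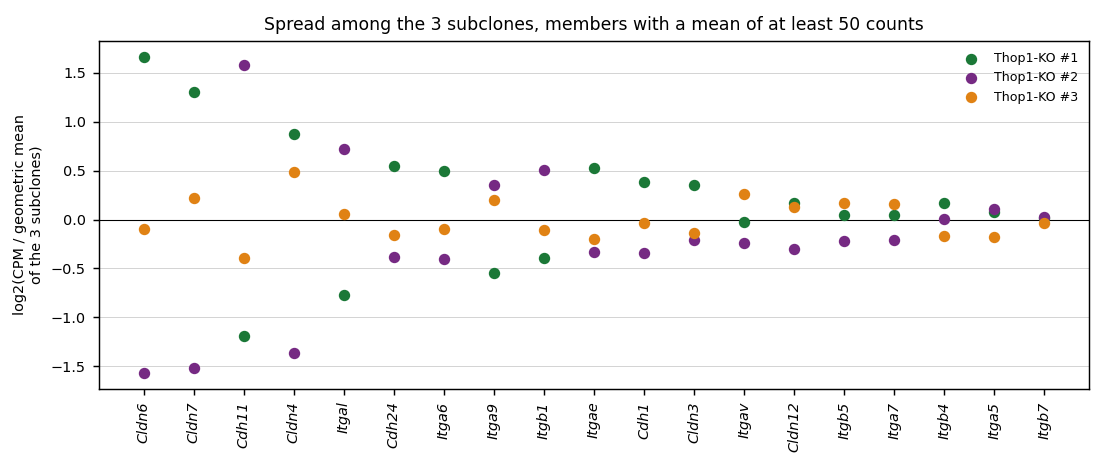
Log2 of the CPM of each subclone over the geometric mean of the 3, for the 19 members with a mean of at least 50 counts, ordered from the widest spread to the narrowest. #2 is the lowest for *Cldn6*, *Cldn7* and *Cldn4* and the highest for *Cdh11* and *Itgb1*, and the 3 subclones nearly coincide for *Itgb7*.

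The calls depended on which subclones entered. Without #2, 10 of 33 members were called, 8 of them higher (*Cdh1*, *Cdh24*, *Cldn4*, *Cldn7*, *Itga5*, *Itga9*, *Itgav* and *Itgb5*) and 2 lower (*Cdh9* and *Cdh15*). The filter fixed the direction of *Itgav*, *Cdh9* and *Cdh15*. Without #2, 37.9% of all genes were called, 21.1% higher and 16.8% lower. There *Cldn4* reached a log2 fold change of 2.38 (adjusted p = 1.65e-05). Without #3, edgeR called 0 members, with 8 at an unadjusted p under 0.05, and 3.1% of all genes. Without #1, the 4 calls stood and *Itga9* joined them, with 13.6% of all genes called.

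The proteins that tie cadherins to actin were read from a list of 16 genes, all tested. Of these, 3 rose and 0 fell, beside 8.62% of all tested genes called higher and 5.17% called lower. The median log2 fold change of the 16 was 0.58, beside 0.06 for all tested genes. Beta-catenin (*Ctnnb1*), which binds the tail of E-cadherin, was at 391, 487 and 434 CPM in the subclones and 113 in WT (log2 fold change 1.95, SE 0.26, adjusted p = 0.0097). Afadin (*Afdn*), which links nectins to actin, was at 63.4, 67.1 and 53.7 CPM against 8.88 (2.79, SE 0.33, adjusted p = 0.00767). *Plekha7*, which binds p120-catenin at the apical junction, was at 25.6, 13.7 and 24.3 CPM against 1.88 (3.49, SE 0.56, adjusted p = 0.0155). In each of the 3 every subclone was above WT, as in 38.1% of all tested genes, and the calls stood under the length correction.

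Tight junction partners gave 2 higher and 0 lower calls of 20 tested, a share near the 8.62% of all tested genes called higher. Their median log2 fold change was 0.68, beside 0.06 for all tested genes. *Pard6g*, a polarity protein, was at 10.4, 16.1 and 13.2 CPM against 2.89 in WT (log2 fold change 2.19, SE 0.46, adjusted p = 0.0289), and the junctional adhesion molecule *Jam3* at 47.8, 39.7 and 36.7 against 15.7 (1.40, SE 0.32, adjusted p = 0.0362). The polarity gene *Crb3* and the scaffold *Tjp3*, picked after their values were seen, followed the order of the claudins. *Crb3* was at 53.0, 8.94 and 33.0 CPM and 10.8 in WT, and *Tjp3* at 234, 68.0 and 201 CPM and 61.9 in WT. Neither was called by edgeR (adjusted p = 0.262 and 0.179), while DESeq2 called *Tjp3* (adjusted p = 0.031). The desmosome list had 5 tested genes and 0 calls by edgeR or DESeq2, with 1 at an unadjusted p under 0.05. With 13.8% of all tested genes called by edgeR and 21.5% by DESeq2, 0 of 5 says little.

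On the integrin side, 3 of 24 tested adaptors rose and 0 fell, beside 13.8% of all tested genes called in either direction. The median log2 fold change of the adaptors was 0.42, beside 0.06 for all tested genes. The tensins *Tns1* and *Tns3*, which bind beta tails and actin, were at 19.7, 19.3 and 20.7 CPM against 2.56 (log2 fold change 2.96, SE 0.39, adjusted p = 0.00937) and at 106, 110 and 126 CPM against 53.4 (1.09, SE 0.26, adjusted p = 0.041). The actin crosslinker *Actn4* was at 865, 612 and 618 CPM against 312 (1.16, SE 0.29, adjusted p = 0.0452). Under the length correction only *Tns1* of the 3 was called.

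The matrix ligands had the most calls, with 5 higher and 1 lower of 17 tested. Of all tested genes, 13.8% were called in either direction and 8.62% higher. The median log2 fold change of the ligands was 1.22, beside 0.06 for all tested genes. Under the length correction 4 ligands were called higher, *Lamc1*, *Lama5*, *Lamb1* and *Fn1*, at smaller log2 fold changes of 2.07, 1.81, 1.2 and 0.89. The laminin chains *Lamc1*, *Lama5* and *Lamb1*, parts of basement membrane, all rose. *Lamc1* was at 135, 109 and 113 CPM against 23.2 in WT (log2 fold change 2.36, SE 0.30, adjusted p = 0.0087), *Lama5* at 90.3, 95.0 and 133 CPM against 23.6 (2.17, adjusted p = 0.0159) and *Lamb1* at 207, 168 and 193 CPM against 67.6 (1.49, adjusted p = 0.02). *Fn1* (fibronectin), the ligand of the *Itga5* product, was at 3800, 3760 and 3890 CPM against 1640 (1.22, SE 0.19, adjusted p = 0.0145). For nephronectin (*Npnt*), a ligand of alpha-8 integrin, WT had 1 count and the subclones 42, 18 and 36, and its call was lost under the length correction (adjusted p = 0.0515). *Npnt* passed the filter on low counts only through the subclones, which fixed its direction. The RGD protein *Mfge8*, which alpha-v integrins bind, fell, at 625, 667 and 631 CPM against 1250 in WT (log2 fold change -0.96, SE 0.19, adjusted p = 0.0254). Fibroblasts also make *Fn1* and laminins, and the fibroblast markers summed to 62.0, 129 and 77.0 FPKM in #1, #2 and #3 and 35.5 in WT. Among the 19 members with a mean of at least 50 counts, *Itgb1*, *Itga9*, *Itgal* and *Cdh11* ran #2, #3, #1 from high to low. So did 24.2% of all genes at that depth. A further 9 members, *Cdh1* among them, ran #1, #3, #2, beside 28.8% of those genes. *Itgav*, *Itgb5* and *Itga7* ran #3, #1, #2, beside 14% of those genes. *Itga5*, at 11.8 CPM in #2 and 11.5 in #1, did not separate these subclones. The part of fibroblast transcripts in the ligand and member values was not tested.

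Of the 14 called partner genes, *Afdn*, *Ctnnb1*, *Plekha7*, *Tns1*, *Lamc1* and *Lama5* stayed called whichever subclone was left out, with a highest adjusted p of 0.0221, 0.0374, 0.0419, 0.0419, 0.0291 and 0.0487. The others lost the call without 1 of the subclones, with highest adjusted p-values from 0.0755 (*Fn1*) to 0.193 (*Tns3*). Over all alternatives *Plekha7* reached 0.0972 and *Lama5* 0.0717.

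**Figure D5:**
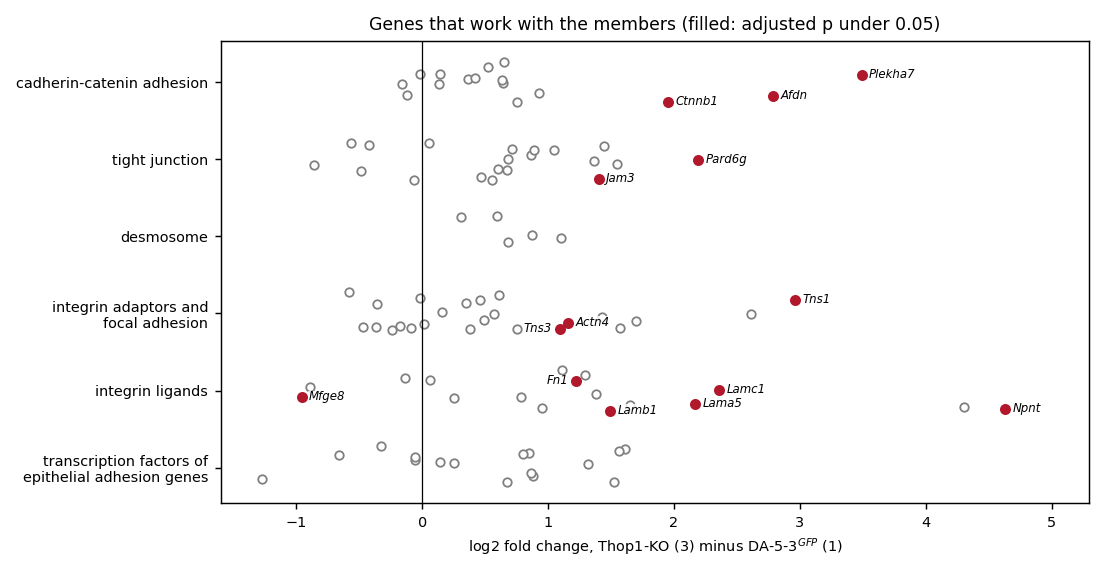
Log2 fold change (*Thop1*-KO minus WT) of the tested genes of each partner list, with called genes filled and named and points moved up or down within a list to keep them apart. The called genes lie above 0 except *Mfge8* at -0.96.

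Transcription factors known to repress or activate epithelial adhesion genes gave 0 calls among 16 tested by edgeR, with 3 at an unadjusted p under 0.05 and 1 higher and 1 lower by DESeq2. Of all genes, 13.8% were called by edgeR and 21.5% by DESeq2. The median log2 fold change of the 16 factors was 0.74, beside 0.06 for all tested genes. Among them *Snai1* was the gene called lower by DESeq2 (adjusted p = 0.0428). The gene DESeq2 called higher was *Elf3*, at 15.2, 17 and 17.9 CPM in #1, #2 and #3 and 6.66 in WT (adjusted p = 0.0183).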

How the data were processed

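Poly(A) RNA of 4 libraries, 3 *Thop1*-KO subclones and 1 WT control, was analysed. The authors trimmed reads with the FASTX toolkit and deposited raw counts per gene together with FPKM values; the submitters' processing notes name HISAT2 2.0.5 and featureCounts 1.5.0-p3. The genome build, the annotation release and the use of strand are not given in the sources used here. The deposited FPKM values equalled the counts divided by exon length and DESeq2's size factors. Coordinates follow the deposited annotation, and promoters are from RefSeq (GRCr8; 51 of 70 members matched by symbol).

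Counts were filtered with filterByExpr (minimum count 10), scaled by TMM and tested across all genes with edgeR 4.0.16 (quasi-likelihood, Benjamini-Hochberg) in R 4.3.3. The test was checked on simulated counts. Alternatives were 3 other scalings, DESeq2 1.42.0, other filters, limma 3.58.1 with a pseudocount of 1 or 0.1 FPKM before the log2, a loess fit against exon length (span 0.3) and leaving out each subclone. Library totals of 15405499 to 17936544 make 3 counts, taken as the floor, 0.167 to 0.202 CPM. No pair of libraries agreed within sampling noise by a chi-square test of their counts. The members and gene lists were chosen with earlier results of these data known. Named genes were every called member, the 3 most abundant of each family, *Cdh1*, *Cdh3*, *Itga5*, *Itga6*, *Itgav*, *Itgb1*, *Itgb5*, *Cldn3*, *Cldn4*, *Cldn6* and *Cldn7*, up to 4 called partners per list and direction, and *Thop1*; other genes named with values, such as *Npnt*, *Crb3*, *Tjp3*, *Snai1*, *Cdx2* and the called ESC markers, were chosen after their values were seen. A gene that the symbol pattern takes is not reported here. Figures were drawn with Python 3.11.15 and matplotlib 3.10.9.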

Additional observations from a re-analysis of the deposited data

How the results depend on the processing

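Of 218 values of named members under the alternatives, 191 kept their direction and their side of the threshold, 6 passed it and 9 no longer did, and 12 changed sign. Members called ranged from 2 (limma on log2(FPKM + 1) with no filter) to 5, against 4 in the main analysis, and from 0 to 10 when each subclone was left out in turn (integrins 0 to 4, cadherins 0 to 4, claudins 0 to 2). With no filter on low counts 2 cadherins were called (*Cdh1* higher, *Cdh9* lower), beside 2198 of 19903 genes. Under limma on log2(FPKM + 0.1) 2 were called as well (*Cdh9* and *Cdh15*, both lower), beside 1378 of 15028 genes, and *Cdh1* was not. There the filter fixed the direction of *Cdh9* and *Cdh15*. Called cadherins were 0 under limma on log2(FPKM + 1), with and without the filter, and under the length correction, where 1, 3 and 3 of them were at an unadjusted p under 0.05. The median log2 fold change of the tested members was 0.58 under upper quartile scaling, 0.17 under limma on log2(FPKM + 1) with and without the filter, 0.41 under limma on log2(FPKM + 0.1), 0.42 under the length correction, and 0.44 to 0.64 when a subclone was left out; a larger pseudocount shrinks low genes by construction, and for the others the cause was not tested. Signs changed only in genes that were not called: *Itgb1* at -0.06 under upper quartile scaling, -0.02 under the 3 limma settings, -0.20 under the length correction and -0.27 to 0.22 without 1 subclone; *Itgb7* at 0.00 under library size scaling; *Cldn6* at -0.11 under limma with a pseudocount of 1, -0.19 with 0.1 and -0.84 to 0.84 without 1 subclone; and *Cdh11* at -0.59 to 1.06 without 1 subclone.

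Over all genes the calls numbered 2072 in the main analysis, 1090 under limma on log2(FPKM + 1) with no filter, 1378 under limma on log2(FPKM + 0.1), 5572 without #2 and 457 without #3. Library size scaling moved the median of all genes from 0.06 to 0.13 and upper quartile scaling to -0.04, and neither changed a call of a member. The share of called genes that were higher was 62.5%, and 74.6% under limma on log2(FPKM + 0.1), 50.6% under limma on log2(FPKM + 1) with no filter and 77.5% without #3. No paired analysis was possible because WT is 1 library that shares no pairing with the subclones. With 1 control library, no value of WT has a replicate error, and the filter left out members below about 10 counts, which the fit without it included.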
